A study of Mus musculus with 3 samples.

Results

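The heat shock chaperone genes Hspa1a, Hspa1b, Hspa8, Hsph1, Hsp90aa1, Hsp90ab1, Dnaja1, Dnajb1 and Hspe1 and the heat shock factor gene Hsf1 were followed across 3 populations of myeloid cells from mice with experimental autoimmune encephalomyelitis (EAE), a model of multiple sclerosis. They are 10 named genes of the 22238 genes listed in all 3 libraries, and they were chosen by name, as inducible and constitutive members of the family. Female C57BL/6J mice of 10 to 12 weeks, labelled WT, were immunized with myelin oligodendrocyte glycoprotein (MOG) peptide in complete Freund's adjuvant, received 250 ng pertussis toxin per injection, and were used at days 14 to 15. Monocytes of the bone marrow (BM monocytes) were sorted as Ly6Chi cells positive for CD45 and CD11b and negative for Ly6G and CD11c, and were pooled from 13 mice of 2 experiments. Monocytes of the spinal cord (SC monocytes) and monocyte-derived antigen-presenting cells (APCs) of the same cords were sorted as Ly6G- cells positive for CD64, CD11b and CD45, the former Ly6Chi and the latter Ly6Clow/-, and were pooled from 18 mice of 3 experiments. All 3 groups were immunized, so no library came from an animal without disease induction. RNA of each population was sequenced as 1 library, with a total of 33280643 estimated reads for BM monocytes, 27283795 for SC monocytes and 28209589 for APCs.

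Proteins of the HSP70 family bind exposed hydrophobic stretches of unfolded proteins in cycles of ATP hydrolysis. Proteins with a J domain, such as Dnaja1 and Dnajb1, start that hydrolysis, and exchange factors such as Hsph1 release the ADP so that the client protein can leave. Those of the HSP90 family act later, on nearly folded clients such as kinases and steroid receptors. Hsf1, the main heat shock transcription factor, is held inactive by chaperones and, once released under protein stress, forms trimers on repeats of the bases GAA and TTC in the promoters of chaperone genes. In immune cells these genes are also known to respond to fever temperatures, to activation and to the handling of tissue.

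The handling differed between the tissues. Spinal cords were digested with collagenase D and DNase I at 37 °C for 30 min and passed through a Percoll gradient, whereas bone marrow was flushed and enriched with a monocyte kit, with no digestion described. Tissue and dissociation therefore cannot be told apart in the comparison of spinal cord with bone marrow, while both spinal cord populations went through the same digestion. With 1 library per population, no difference has a replicate check and no p-value is given. The intervals are for counting error alone, and reads that are PCR copies of the same molecule do not count it independently. Levels are given as TPM, transcript shares corrected for transcript length, rescaled to the same sum over the common genes, with 95% Wilson intervals. Fold changes were taken from estimated reads scaled by size factors, with 98% intervals. A gene was called higher or lower where the whole interval lay beyond a 2-fold change and the gene was active, with TPM over 3 in either library. In pooled cells, fewer cells of a type and less RNA per cell cannot be told apart.

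The label of the APC library names bone marrow as its source in 1 field and spinal cord in its title and tissue fields. The genes of the sorting markers were read in each library. Ptprc, which encodes CD45, was at 422 TPM in BM monocytes, 265 in SC monocytes and 194 in APCs. Ly6c2, a gene of the Ly6C antigen, was at 5205, 3602 and 1067 TPM in the same order, and Ly6g at 2.57, 1.71 and 1.64. Itgam, which encodes CD11b, was at 485, 533 and 510.0 TPM, and Fcgr1, which encodes CD64, at 81.3, 274 and 138. Itgax, the gene of CD11c, by which only BM monocytes were gated, was at 0.25, 48.9 and 121 TPM. The class II gene H2-Ab1 was at 133 TPM in BM monocytes, 1932 in SC monocytes and 5171 in APCs. The APC library thus had the lowest Ly6c2 and the highest H2-Ab1, as its title describes.

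Both stress-inducible HSP70 genes were far higher in the spinal cord libraries. Hspa1a and Hspa1b encode almost the same HSP70 protein, which is made at a low level in unstressed cells, and they lie close together at chr17:34969190-34972156 and chr17:34956436-34959238 on the minus strand (GRCm38). Hspa1a was at 28.3 TPM (27.0 to 29.7) in BM monocytes, 1272 (1262 to 1281) in SC monocytes and 1040 (1031 to 1048) in APCs. The level in BM monocytes stood apart from both others. Hspa1b was at 14.2 TPM (13.2 to 15.2), 1158 (1148 to 1167) and 976 (968 to 984) in the same order. From BM to SC monocytes Hspa1a rose 56.5-fold (log2 fold change 5.82, 98% interval 5.74 to 5.91). Hspa1b rose 103-fold (log2 6.68, 6.56 to 6.81), so that both moved from ranks 4519 and 6578 among the common genes to ranks 137 and 149. Their log2 fold changes lay at percentiles 97.5 and 98.1 of all genes active in either library.

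The split of reads between the pair is uncertain. Of the 50-base windows of Hspa1a transcripts, 60.3% also occur in transcripts of another gene, and of those of Hspa1b 62.3%. The sum of both genes does not depend on how reads were split within the pair. It held 2407 estimated reads in BM monocytes, 123001 in SC monocytes and 110840 in APCs. On that sum the difference between SC and BM monocytes was 71.3-fold (log2 6.16, 6.09 to 6.23). The sum was 1.24-fold lower in APCs than in SC monocytes (log2 -0.31, -0.32 to -0.29). The TPM of Hspa1a was 2.00 times that of Hspa1b in BM monocytes, 1.10 times in SC monocytes and 1.07 times in APCs.

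**Figure D1:**
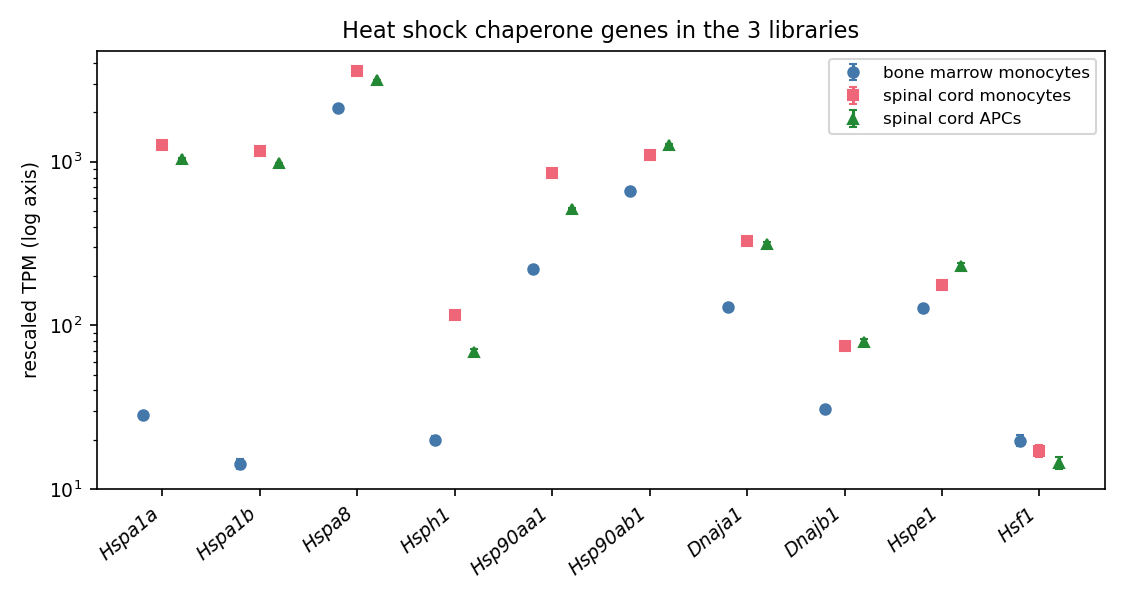
Level of each of the 10 genes in the 3 libraries, as rescaled TPM on a log axis, with 1 point per library and bars for the 95% counting interval. Hspa1a and Hspa1b lie at 14.2 to 28.3 TPM in BM monocytes and at 976 to 1272 TPM in the spinal cord libraries, while Hsf1 lies at 14.4 to 19.8 TPM in all 3.

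Since Hsf1 binds GAA and TTC units, the promoter sequences of the members were read from RefSeq (GRCm38.p6), from 250 bases before to 50 after each annotated start. The table held 6 of the 10 genes, and the promoters of Hspa8, Hsp90aa1, Hsp90ab1 and Hsf1 were not used here. Motifs of 2 units were searched as GAANNTTC and TTCNNGAA, which each read the same on both strands, and 3-unit motifs as GAANNTTCNNGAA and TTCNNGAANNTTC, which are each other's reverse complement and contain the shorter ones. Among 32851 promoters of this length, 7.86% hold GAANNTTC, 8.52% hold TTCNNGAA, 15.1% hold either and 0.603% hold a 3-unit motif. A promoter of 5 of the 6 members held a 2-unit motif (Hspa1a, Hspa1b, Hsph1, Dnaja1, Hspe1), and that of Hsph1 and that of Hspe1 held a 3-unit motif. The shares are per promoter, whereas members were counted by gene, with a match at any of its starts. Dnaja1 had a match at its first start and none at starts 2 and 3. No match of these letters was found in the windows of Dnajb1. A window with a match is shown for each of these 5 genes, 5′ to 3′ on the gene's strand, with the GAA and TTC units of each match in capitals.
Hspa1a, chr17:34972227-34972286, minus strand: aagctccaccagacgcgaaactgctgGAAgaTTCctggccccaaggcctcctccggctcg
Hspa1b, chr17:34959309-34959368, minus strand: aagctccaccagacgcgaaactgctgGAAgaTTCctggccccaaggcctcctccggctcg
Dnaja1, chr4:40722318-40722377, plus strand: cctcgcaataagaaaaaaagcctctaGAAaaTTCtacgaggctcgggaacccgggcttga
Hspe1, chr1:55088053-55088082, plus strand: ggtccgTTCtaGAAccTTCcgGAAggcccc
Hsph1, chr5:149636287-149636316, minus strand: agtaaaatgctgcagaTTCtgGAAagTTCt
The windows of Hspa1a and Hspa1b are the same in all 60 bases, and the whole promoters in 296 of 300, so the match 104 bases before each start is a single sequence seen in both copies. The match of Dnaja1 starts 124 bases before its first annotated start, inside an exon of a noncoding transcript of Dnaja1 and of the noncoding gene Gm6297 on the other strand. The Hspe1 window lies before the start of Hspe1 and inside an untranslated exon of its neighbour Hspd1 on the other strand. The Hsph1 window lies after the first annotated start, in the 5′ untranslated region. Hsph1 has a further TTCNNGAA match before both of its RefSeq starts, at chr5:149636362-149636369, which is not printed. By the GENCODE coordinates, which reach to 149636376, that match lies inside the gene. A match describes letters in a window and does not show that Hsf1 was bound.

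Hspa8, the constitutive HSP70 that folds new proteins and uncoats clathrin vesicles, was the most abundant member in every library. It was at 2131 TPM (2116 to 2146) in BM monocytes, 3578 (3557 to 3599) in SC monocytes and 3138 (3121 to 3155) in APCs, and ranked 73, 28 and 34 among the common genes. Its reads were 2.11-fold higher in SC than in BM monocytes (log2 1.08, 1.06 to 1.09). That call lay close to the 2-fold threshold and was not made on reads divided by effective length (log2 0.99) or on TPM (log2 0.75). The ratio of the summed TPM of Hspa1a and Hspa1b to the TPM of Hspa8 was 0.0199 in BM monocytes, 0.679 in SC monocytes and 0.642 in APCs. Of these 3 genes, transcripts in BM monocytes were thus almost all Hspa8, and in both spinal cord libraries a mixture of inducible and constitutive genes. The gene lies at chr9:40800984-40810087, and 38.6% of its 50-base windows also occur in transcripts of other genes, mostly in 11 pseudogenes.

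Hsph1, which encodes the HSP110 protein that exchanges the nucleotide of HSP70, followed the inducible pair in direction with a smaller difference. It was at 19.9 TPM (18.8 to 21.1) in BM monocytes, 115 (112 to 119) in SC monocytes and 69.1 (67.1 to 71.2) in APCs. The reads rose 4.70-fold between the monocytes (log2 2.23, 2.12 to 2.34), and none of its windows was shared with another gene. The effective length assigned to Hsph1 was 2831 bases in BM monocytes, 1817 in SC monocytes and 2995 in APCs, so the reads and TPM scales differ for this gene. Between the monocytes its log2 fold change was 2.77 after division by effective length. For APCs against SC monocytes the log2 fold change of reads was -0.07 (-0.14 to 0.01), and -0.65 after that division.

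Both cytosolic HSP90 genes were higher in SC than in BM monocytes on the scale of reads, Hsp90aa1 by the larger factor. Hsp90aa1, the more inducible of the cytosolic HSP90 genes, was at 220.0 TPM (216 to 225) in BM monocytes, 854 (845 to 864) in SC monocytes and 512 (506 to 518) in APCs. Hsp90ab1, the more constitutive gene, was at 661 TPM (654 to 669), 1095 (1085 to 1105) and 1265 (1255 to 1275). Between the monocytes the reads of Hsp90aa1 rose 4.56-fold (log2 2.19, 2.15 to 2.23) and those of Hsp90ab1 2.05-fold (log2 1.04, 1.01 to 1.06). As for Hspa8, the call of Hsp90ab1 was not made on reads divided by effective length (log2 0.97) or on TPM (log2 0.73). In TPM, Hsp90aa1 was at 0.333 of Hsp90ab1 in BM monocytes, 0.780 in SC monocytes and 0.405 in APCs. The last ratio moves with length, since the effective length of Hsp90aa1 was 1978 and 1835 bases in the monocyte libraries and 2757 in the APC library, which was quantified on another transcript set. For APCs against SC monocytes, the log2 fold change of Hsp90aa1 was -0.66 after division by that length. The genes lie at chr12:110690605-110702728 and chr17:45567775-45573271, both on the minus strand. Of the windows of Hsp90aa1, 47.5% also occur in pseudogenes, against 3.44% of those of Hsp90ab1.

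The J-domain genes of the cytosol were both higher in SC monocytes and close to each other in size of change. Dnaja1 (chr4:40722150-40737149), a partner of Hspa8 in folding and import, was at 129 TPM (125 to 134) in BM monocytes, 326 (319 to 334) in SC monocytes and 315 (308 to 322) in APCs. Dnajb1 (chr8:83608193-83612653), the stress-inducible HSP40, was at 30.7 TPM (29.4 to 32.2), 74.2 (71.9 to 76.6) and 79.6 (77.3 to 81.9). Their reads rose 3.01-fold (log2 1.59, 1.52 to 1.66) and 3.05-fold (log2 1.61, 1.51 to 1.70) between the monocytes. These intervals overlapped. The TPM of Dnajb1 was 0.238 of that of Dnaja1 in BM monocytes, 0.227 in SC monocytes and 0.253 in APCs.

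Hspe1 and Hsf1 were not called between the monocytes. Hspe1 (chr1:55088132-55091307), which encodes the lid of the mitochondrial chaperonin, was at 127 TPM (120.4 to 134) in BM monocytes, 177 (169 to 185) in SC monocytes and 231 (222 to 240) in APCs. Its log2 fold change between the monocytes was 0.79 (0.67 to 0.91), an interval that lies above 0 and wholly under a 2-fold change. Hsf1 (chr15:76477422-76501913) was at 19.8 TPM (18.4 to 21.3), 17.0 (15.6 to 18.5) and 14.4 (13.3 to 15.7), with a log2 fold change of -0.05 (-0.25 to 0.14) between the monocytes. That interval holds no change, but this depended on the size factors. The log2 fold change was -0.24 (-0.43 to -0.04) on total reads and -0.30 (-0.49 to -0.11) over every gene listed for the monocytes. By rank Hsf1 stayed between 5442 and 5692 of the common genes.

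Of the 10 genes, 8 were called higher and 0 lower in SC than in BM monocytes, where 13.8% of 10072 active genes were called higher and 10.7% lower. On rescaled TPM with 1 added, calls used the value alone, without an interval. By that rule 6 of the 10 genes were called, all higher, beside 13.1% of active genes higher and 18.8% lower. With the same rule on reads 8 were called higher and 0 lower, beside 15.6% and 14.3% of active genes. The median log2 fold change of the 10 genes was 1.60, against -0.15 over all active genes. In 9 of the 10 it was above 0, as in 42.3% of active genes. The members were named as chaperones and not drawn at random, so these shares are set side by side as a description. Together the 10 genes made up 0.338% of TPM in BM monocytes, 0.867% in SC monocytes and 0.764% in APCs. Without Hspa1a and Hspa1b the sum was 3339, 6237 and 5623 TPM, so the other 8 genes were also higher together in both spinal cord libraries.

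**Figure D2:**
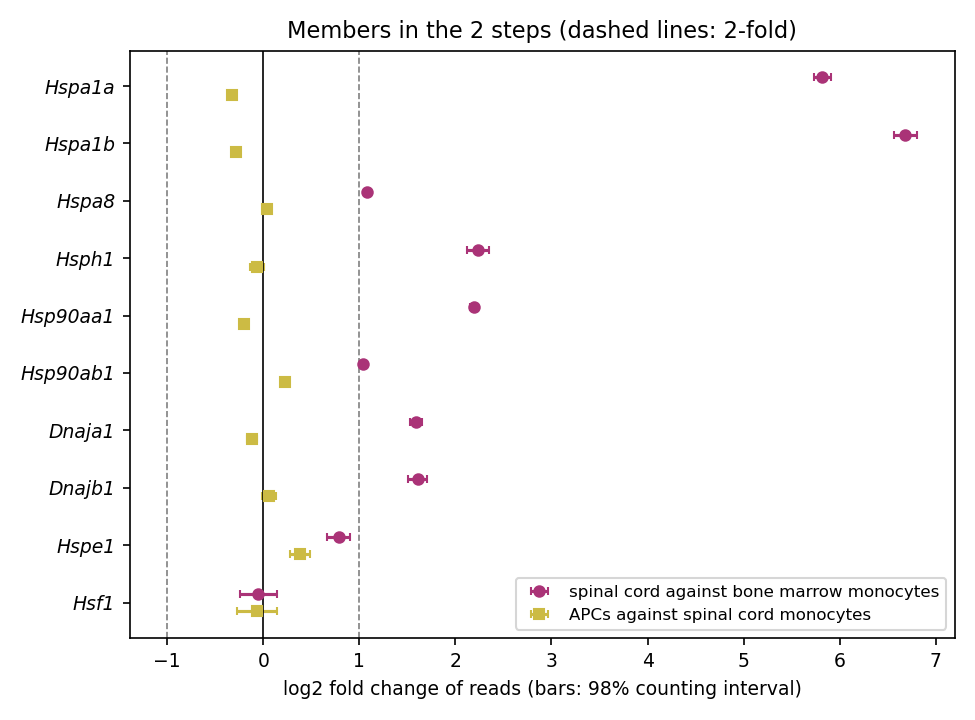
Log2 fold change of reads of each gene between SC and BM monocytes (circles) and between APCs and SC monocytes (squares), with 98% counting intervals and dashed lines at a 2-fold change. The first values run from -0.05 for Hsf1 to 6.68 for Hspa1b, and the second stay between -0.33 and 0.39.

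Among APCs and SC monocytes, which came from the same digested cords, the members were close to each other. Of the 10 genes, 0 were called in either direction, where 1.93% of 9734 active genes were called higher and 1.7% lower. On rescaled TPM, called on the value alone, the count was also 0, beside 2.81% of active genes higher and 5.42% lower. With so few calls among all genes, a count of 0 among 10 is near the background. The log2 fold changes ran from -0.33 (-0.35 to -0.31) for Hspa1a to 0.39 (0.28 to 0.49) for Hspe1, with a median of -0.07 beside -0.04 over all active genes. It was above 0 in 4 of the 10, as in 46.5% of active genes. Hsp90ab1 was at 0.23 (0.21 to 0.25) and Hsp90aa1 at -0.20 (-0.23 to -0.17). By counting error alone, the intervals of 7 members excluded no change, and all stayed within 2-fold. Of them, 3 were higher in APCs (Hspa8, Hsp90ab1, Hspe1) and 4 lower (Hspa1a, Hspa1b, Hsp90aa1, Dnaja1). By the same rule 28.4% of active genes were higher and 36.5% lower, so these counts are near the background. Of the 7 members, Hspa8 and Dnaja1 changed sign with the scale of the values, from -0.19 to 0.08 and from -0.11 to 0.18.

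Against BM monocytes, APCs had 9 of the 10 genes called higher, all but Hsf1, where 14.0% of 10190 active genes were called higher and 11.8% lower. Hspa1a was at a log2 fold change of 5.49 (5.41 to 5.58) and Hspa1b at 6.40 (6.28 to 6.53). Hspe1 was called only here, at 1.17 (1.06 to 1.28). The count depended on the scale of the values. It was 7 on total reads, without Hspa8 (0.97) and Hspe1 (1.03, 0.92 to 1.15), beside 12.9% of active genes higher and 14.2% lower. After division of reads by effective length it was 8, without Hspa8 (0.88), beside 14.4% of active genes higher and 12.1% lower. On rescaled TPM, called on the value alone, it was 6, without Hspa8 (0.56), Hsp90ab1 (0.93) and Hspe1 (0.86). On that scale 12.9% of active genes were called higher and 23.9% lower. With the same rule on reads the count was 9, beside 15.9% of active genes higher and 15.3% lower. The log2 fold change was above 0 in 9 of the 10 genes, as in 41.2% of active genes. This comparison shares a library with each of the others, so its values are not further evidence of either.

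**Figure D3:**
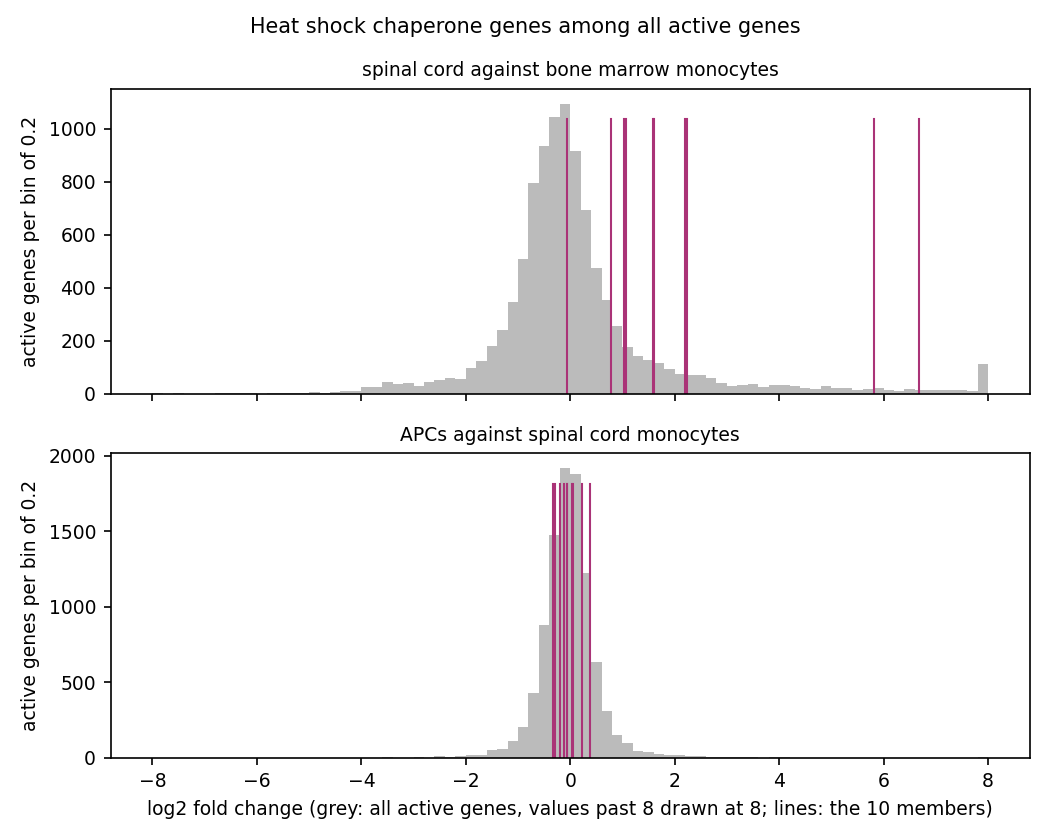
Distribution of the log2 fold changes of all active genes (grey bars, number of genes per bin of 0.2, values past 8 drawn at 8) with the 10 members as lines, for SC against BM monocytes (top) and APCs against SC monocytes (bottom). In the upper panel 8 of the 10 lines lie above 1, and in the lower panel all lie between -0.33 and 0.39.

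The other chaperone lists were counted between the monocytes beside the same background, 13.8% of active genes called higher and 10.7% lower, and most hold too few genes for a share to be read against it. Of 8 other active HSP70 and HSP110 genes, 1 was called higher between the monocytes and 0 lower, with a median log2 fold change of -0.22. The gene called was Hspa2, an HSP70 best known from the testis, at 4.19 TPM in BM monocytes, 20.5 in SC monocytes and 15.7 in APCs (log2 2.62, 2.36 to 2.88). Hspa5, the HSP70 of the endoplasmic reticulum, was at 799.6, 1109 and 956 TPM, and did not pass 2-fold between the monocytes, with a value of 0.86 (0.83 to 0.88) on the log2 scale. Of 2 other HSP90 genes, Hsp90b1 of the endoplasmic reticulum and Trap1 of the mitochondrion, 0 were called, at log2 fold changes of -0.21 and 0.12.

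Of 32 other active J-domain genes, 2 were called higher and 4 lower, with a median of -0.13. Dnajb4, a heat-inducible relative of Dnajb1, was higher at a log2 fold change of 2.29 (2.05 to 2.53), from 5.76 TPM in BM monocytes to 21.3 in SC monocytes. Dnajb2 was higher at 1.98. The genes called lower were Dnajc9, a histone chaperone of dividing cells, at -2.51, Dnajc10 and Dnajc3, both of the endoplasmic reticulum, at -1.42 and -1.33, and Dnajb14 at -1.18. None of the 33 J-domain genes active in the spinal cord was called between APCs and SC monocytes. There 1.93% of all active genes were called higher and 1.7% lower, so a count of 0 is near the background.

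Chaperonins and co-chaperones stayed near the middle of all genes. All 9 chaperonin genes were active and 0 were called, with a median of -0.06. Cct2 and Cct8, subunits of the cytosolic ring that folds actin and tubulin, were at log2 fold changes of -0.05 and -0.18. Hspd1, which forms the mitochondrial barrel that Hspe1 closes and shares a promoter region with it, was at 105 TPM in BM monocytes, 90.7 in SC monocytes and 136 in APCs, and its log2 fold change of reads was 0.22 between the monocytes. Its TPM was thus lower and its scaled reads higher in SC than in BM monocytes, and no direction is given for it. Of 9 mitochondrial chaperone genes 0 were called, with a median of 0.12. Of 26 active co-chaperones 1 was higher and 1 lower, with a median of -0.07. Bag3, an HSP70 exchange factor for autophagy and a known Hsf1 target, was at 22.5 TPM in BM monocytes, 62.2 in SC monocytes and 75.5 in APCs, and its log2 fold change was 1.80 (1.68 to 1.92). Fkbp5, a glucocorticoid-induced partner of HSP90, was lower at -1.17 (-1.25 to -1.10).

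Of 16 endoplasmic reticulum chaperones, 0 were called higher and 2 lower, Dnajc3 and Dnajc10, with a median of -0.19. Of 3 active small heat shock genes, 1 was called higher and 1 lower. Hspb1, the small heat shock protein of most tissues, had 1 read in BM monocytes, 225 in SC monocytes and 227 in APCs, and its log2 fold change between the monocytes was 7.55. The interval of that value, 5.55 to 11.06, is wide because of the single read. Hspb6 had 125, 24 and 83 reads and was lower at -1.87 (-2.65 to -1.17). Among the heat shock factors and regulators, Hsf2 and Hsbp1 were active and 0 were called, at -0.78 and 0.62, and Hsf3 had no read in any library.

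Among 14 active genes known as other Hsf1 targets, 6 were called higher between the monocytes and 0 lower, with a median log2 fold change of 0.60. Among these were Hspb1, Ier5 (2.47), Dnajb4, Hmox1 (2.16) and Bag3. Hspb1, Dnajb4 and Bag3 were also counted in the lists of their families, and Ier5 is among the immediate early genes too. Hmox1, which degrades heme, went from 121 TPM in BM monocytes to 439 in SC monocytes and 376 in APCs. The list was mixed, since Hspd1 (0.22 on reads), Chordc1 (-0.07), Stip1 (-0.02), Ahsa1 (-0.24) and Fkbp4 (-0.44) were not called. Among them Hspd1 and Chordc1 have a promoter with a 3-unit motif, as do the members Hspe1 and Hsph1 and the J-domain gene Dnajb6. Of these 5 genes, Hsph1 alone was called higher, beside 13.8% of active genes, so the count is near the background. The Hspe1 match lies inside an untranslated exon of Hspd1, so both genes may hold the same sequence.

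**Figure D4:**
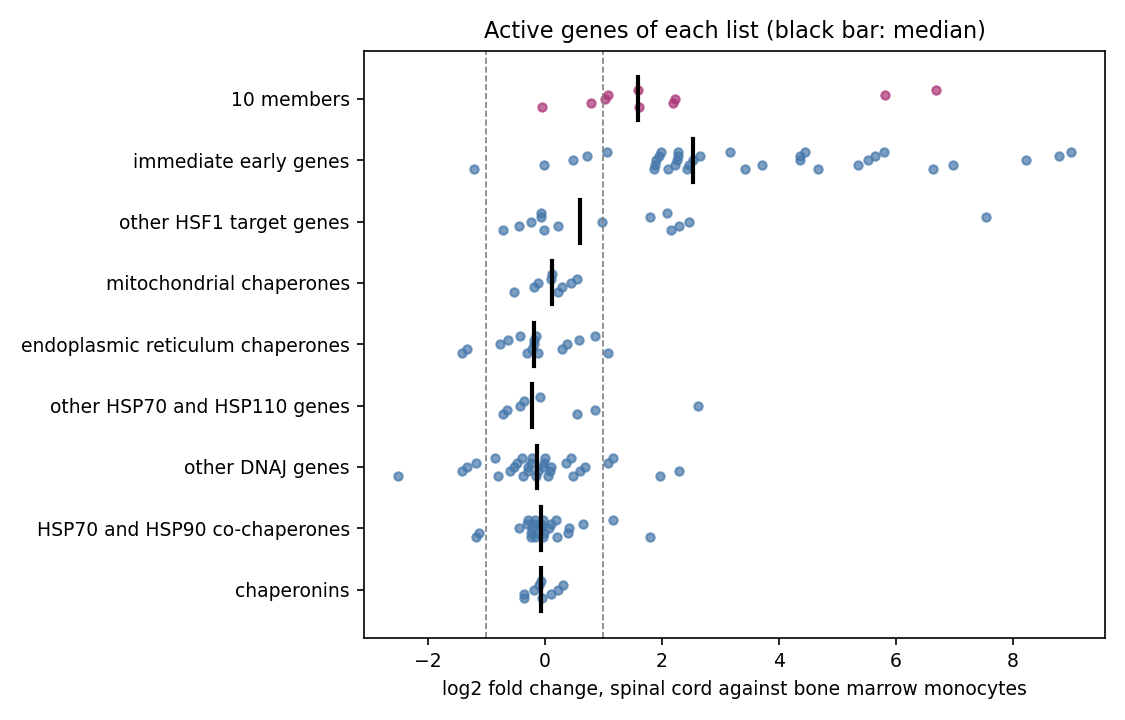
Log2 fold change between SC and BM monocytes for each active gene of the 10 members and of 8 gene lists, with a black bar at each median and dashed lines at a 2-fold change. The medians are 1.60 for the members, 2.54 for immediate early genes, 0.60 for other Hsf1 targets and between -0.22 and 0.12 for the other lists.

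Immediate early genes, which are switched on within minutes by many stimuli and have been reported to rise when tissue is dissociated, were higher alongside the chaperones. Of 35 such genes, 31 were called higher and 1 lower (Cebpd) in SC than in BM monocytes, with a median log2 fold change of 2.54. Over all active genes 13.8% were called higher and 10.7% lower, with a median of -0.15. Their summed level was 5877 TPM in BM monocytes, 22218 in SC monocytes and 17215 in APCs. Fos, the most abundant of them, was at 1665, 2143 and 1769 TPM and was not called (log2 0.72). Junb was at 345, 1738 and 1727 TPM (log2 2.66). In APCs, 0 of the 35 were called higher and 3 lower than in SC monocytes (Ier5, Rhob and Atf3), with a median of -0.46. In that comparison 1.93% of active genes were called higher and 1.7% lower, with a median of -0.04. Many of these genes are also known to respond to inflammatory activation. Their part in the result on the chaperones was not tested, and digestion was not varied within a tissue.

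Markers of other cell types moved between the libraries as well. Over all active genes, 13.8% were called higher and 10.7% lower between the monocytes. Between APCs and SC monocytes these shares were 1.93% and 1.7%. Microglia markers summed to 13.9 TPM in BM monocytes, 164 in SC monocytes and 434 in APCs, with Sparc the most abundant in the spinal cord libraries at 53.2 and 148 TPM. All 8 active microglia markers were called higher between the monocytes, and 8 of 9 in APCs over SC monocytes. In BM monocytes, the microglia genes Sall1 and Slc2a5 had no read. Of 10 active neutrophil markers, 8 were called lower and 2 higher in SC than in BM monocytes. The list summed to 7954, 1215 and 1352 TPM, with S100a8 the most abundant, a gene that monocytes also express.

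T and NK cell markers summed to 2.19, 54.1 and 97.3 TPM, with Thy1 the most abundant, and 7 of the 10 were at or under 3 reads in BM monocytes. Erythroid markers summed to 1.94, 148 and 50.3 TPM, led by Hba-a2. Endothelial markers summed to 85.3, 151 and 81.7 TPM and were led by Ly6c1, at 68.1, 76.2 and 35.4 TPM, a gene that also encodes Ly6C antigen and is expressed by monocytes. Markers of B cells (8.69, 3.52 and 3.79 TPM), astrocytes (4.17, 18.5 and 19.6), neurons (0.712, 3.08 and 3.97), conventional dendritic cells (40.8, 21.3 and 28.3) and CNS-associated macrophages (15.7, 36.8 and 51.1) had sums under those of the microglia markers in both spinal cord libraries. They were led in SC monocytes by Cd79b, Gfap, Nefm, Batf3 and Siglec1. Oligodendrocyte markers summed to 103, 77.3 and 74.8 TPM, led by Mbp, which fell from 72.7 TPM in BM monocytes to 35.7 in SC monocytes, and Mog was at 0, 4 and 3 reads. The sums hide members that moved the other way. Between the monocytes, 3 of 5 active oligodendrocyte markers were called higher and 1, Mbp, lower, with a median log2 fold change of 4.04. Of 3 active dendritic cell markers 2 were called higher and 1 lower, and in APCs over SC monocytes 2 of 5 were called higher. Between the monocytes, the markers called higher were also 6 of 6 active ones of T and NK cells, 4 of 4 of erythroid cells, 3 of 3 of astrocytes, 2 of 4 of endothelial cells and 2 of 4 of CNS-associated macrophages, with none lower in these lists. The part of these cells in the result was not tested.

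Of 8313 genes with TPM over 3 in every library and outside all lists, those nearest to Hspa1a in both fold changes over the 3 libraries were Tnfaip3, Cd69, Hilpda, Cmklr1 and Cfb. The nearest was Tnfaip3, an inhibitor of NF-kB signalling, at a distance of 0.12 on the log2 scale, with 13.2 TPM in BM monocytes, 555 in SC monocytes and 415 in APCs. Cd69, an early activation antigen, was at 4.26, 197 and 144 TPM. For Hspa8 the nearest were Bmp2k, Lat2, Akr1b10, Dcaf1 and Tctex1d2, with Bmp2k at a distance of 0.03. With 3 libraries there are only 2 independent fold changes per gene, so many genes can lie near any pattern.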

How the data were processed

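RNA-Seq values of 3 pooled libraries were used. Per the submitters' processing notes and the study's methods, the authors quantified 50-base paired reads with Salmon 0.14.1 against GENCODE vM22 transcripts (mm10), summed per gene. The deposited TPM values are scaled by the authors for transcript length and depth. The deposited estimated counts are raw sums of reads, with fractions where a read fitted several transcripts. The authors' effective lengths were used only to rescale reads. The monocyte files list 54432 genes and the APC file 22242, which shows a different transcript set for the APCs. The 22238 common genes held 84.9%, 85.3% and 99.99% of TPM in BM monocytes, SC monocytes and APCs, and TPM was rescaled to sum to 1000000 over them.

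Counts were rounded to whole reads. Size factors were medians of ratios over genes above 0 in all libraries. The log2 fold change is the median of the ratio of gamma distributions of reads plus 1, and percentiles 1 and 99 of that ratio bound the 98% interval. A call needed the whole interval beyond 2-fold, after the definition in the study's methods, computed anew, and TPM over 3. Calls on TPM, rescaled or deposited, had no interval and used the value alone, with 1 added to TPM. The study's threshold for active genes, 2 on log2 TPM, was read as one on TPM with 1 added. Read without the addition it is TPM over 4, which was an alternative and changed no call of a member. The procedure was tested on simulated data drawn with counting error alone, the error that the intervals assume. That test does not cover spread between libraries. A share at 0 was read against a floor of 3 reads. Coordinates are from GENCODE M21 on GRCm38, which holds 99.0% of the common gene identifiers, and promoters from RefSeq (GRCm38.p6), matched by symbol.

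The members and gene lists were chosen with earlier results of these data known. All members are named. From each list, the most abundant genes, the called genes with the largest changes and genes at or under 3 reads were named, as were genes that make up a count of 5 or fewer, and Stip1, Chordc1, Ahsa1 and Fkbp4 as uncalled targets, which were chosen after their values were seen. Other listed genes are not reported here one by one. The genes nearest to Hspa1a and Hspa8 were taken by Euclidean distance. The work was done in Python 3.11.15 (scipy 1.17.1, pandas 2.3.3, numpy 2.4.6; figures by matplotlib 3.10.9). TMM factors came from edgeR 4.0.16 in R 4.3.3.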

Additional observations from a re-analysis of the deposited data

Results flagged for a closer look

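Estimated reads were also found on processed pseudogenes that share 50-base windows with a member, in transcripts that the comparisons did not use because the APC library lists none of them. For Hspa8 the pseudogenes held 138 reads in the bone marrow library and 216 in the monocytes of the spinal cord, or 0.185% and 0.192% of the reads of the gene. For Hsp90aa1 they held 90 and 40 reads, for Hsp90ab1 16 and 7, and for Dnaja1 118 and 149. For Dnajb1 they held 18 reads in spinal cord monocytes. The largest share of a gene's own reads was 3.14%, for Dnaja1 in bone marrow monocytes. These values were picked out because they lie above the limit of 3 reads that a count of 0 allows, in data outside the main measurement.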

How the results depend on the processing

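No paired analysis was possible because each population has 1 library, and no replicate could be left out. The calls of Hspa1a and Hspa1b against bone marrow monocytes held under every alternative run, and that of their sum under the 5 it was run under (total reads, TMM factors, reads divided by effective length and both assumed coefficients of variation). With an assumed coefficient of variation of 0.2 between libraries, 4 members were called higher in spinal cord than in bone marrow monocytes and 4 in APCs than in bone marrow monocytes. With 0.4 these counts were 2 and 2, and Hsph1 and Hsp90aa1 were lost only at 0.4. Between the monocytes, 9.0% of active genes were called higher and 4.46% lower at 0.2, and 5.94% and 2.02% at 0.4. For APCs against bone marrow monocytes these shares were 9.54% and 4.85% at 0.2, and 6.76% and 1.98% at 0.4. Hspa8 and Hsp90ab1 also lost the call between the monocytes on total reads (0.89 and 0.85), reads divided by effective length (0.99 and 0.97), rescaled or deposited TPM, and every gene listed for the monocytes (0.83 and 0.79), which left 6 of the 10 called higher. Under those settings 12.2% to 14.0% of active genes were called higher and 10.6% to 18.8% lower. The calls on TPM among them used the value alone, without an interval. For APCs against bone marrow monocytes, Hspa8 was also lost on deposited TPM (0.79), and 8 members were called. On that scale 14.7% of active genes were called higher and 16.5% lower. Among all active genes, higher and lower calls between the monocytes were 1309 and 1838 on deposited TPM and 1371 and 1587 over every gene listed for them, and between APCs and spinal cord monocytes 240 and 317 on length-divided reads. Total reads moved the median of all genes by -0.18 between the monocytes, so relative to all genes these values changed little. The median of the chaperonins moved there to -0.25, of the co-chaperones to -0.25 and of the mitochondrial chaperones to -0.063. On reads divided by effective length, the medians between APCs and spinal cord monocytes moved to 0.21 for co-chaperones, 0.10 for endoplasmic reticulum chaperones and 0.20 for mitochondrial chaperones. With an interval that excludes no change in place of 2-fold, 3 members were higher and 4 lower in APCs than in spinal cord monocytes. By that rule 28.4% of active genes were higher and 36.5% lower. The added alternatives, pseudogene reads counted with the gene and size factors without the listed genes, were chosen after seeing the data and changed no call of a member. Depth was not varied, and the interval of Hspb1, with 1 read in bone marrow monocytes, ran from 5.55 to 11.06.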
